A study of Mus musculus with 8 samples.

Results

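The genes described here are 8 regulators of thymic epithelial identity, Foxn1, Pax1, Pax9, Trp63, Six4, Eya1, Isl1 and Meis1. They were taken by gene symbol from a table of 55450 genes. Each symbol matched 1 row, and all 8 genes passed the filter on low counts. RNA had been sequenced from thymic epithelial cells (TECs) of mouse embryos at E17, all carrying the RANK-Venus and CCL21a-tdTomato reporters. The reporters mark cells that express RANK, the receptor encoded by Tnfrsf11a, and cells that express the chemokine gene Ccl21a. CD45-EpCAM+ cells were sorted into populations named CCL21+RANK-, CCL21-RANK+ and CCL21-RANK-, with 3, 3 and 2 libraries. The comparisons ask how the gene expression profile of CCL21-expressing embryonic TECs differs from that of RANK-expressing cells and of cells with neither marker. The study's checklist describes its replicates as biological, but whether the libraries of a population came from separate embryos or pools is not stated, so p-values measure the spread between these libraries. The tdTomato reporter was a knock-in at Ccl21a, and RANK-Venus is described as a transgene. The libraries held between 42751858 and 71625319 counts, and the 8 genes had from 693 counts (Isl1) to 97113 counts (Pax1) in a library.

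FOXN1, a forkhead protein, is the master regulator of TEC differentiation, and its loss leaves the thymus rudiment unable to support T cells. PAX1 and PAX9, paired-box proteins, act in pharyngeal pouch endoderm, from which the thymus and parathyroid arise. TRP63, or p63, is a relative of p53 that maintains the progenitors of stratified epithelia. SIX4 is a homeodomain protein that works with EYA1, a coactivator and phosphatase that does not bind DNA itself. ISL1, of the LIM-homeodomain class, and MEIS1, of the TALE class, are developmental regulators with broad roles outside the thymus.

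The sort was reflected in the libraries. Tnfrsf11a was at 93.1 to 111 RPKM (counts scaled by exon length and library total) in CCL21-RANK+ cells, at 8.78 to 10.3 in CCL21+RANK- cells and at 2.26 to 2.62 in CCL21-RANK- cells. Ccl21a was at 306 to 561 RPKM in CCL21+RANK- cells, at 78.2 to 152 in CCL21-RANK+ cells and at 6.89 to 8.88 in CCL21-RANK- cells. Ccl21a transcripts were therefore not absent from the population sorted as CCL21-RANK+. The epithelial genes Epcam, Cdh1, Krt8 and Krt18 were each at 49.5 RPKM or more in every library. CCL21+RANK- replicate 1 stood apart in its parathyroid markers (Pth, Gcm2, Casr and Chga), which summed to 7122 RPKM in replicate 1 and to 1750 and 1955 RPKM in replicates 2 and 3. The same sum was 11.1 to 24.9 RPKM in CCL21-RANK+ cells and 21.6 to 23.8 RPKM in CCL21-RANK- cells. CCL21-RANK+ replicate 1 stood apart in its muscle markers (Myod1, Myog, Des, Ckm, Actc1 and Chrna1), which summed to 128 RPKM there against 36.6 and 46.3 in replicates 2 and 3. Values without these libraries are given beside some of the results that they move.

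All 8 genes were expressed in all 8 libraries, and their levels spanned a wide range. Pax1 was the highest of them in CCL21+RANK- cells, at 253 ± 39.2 RPKM (SD, n = 3), and in CCL21-RANK- cells, at 292 ± 14.1 RPKM (SD, n = 2). It stood at place 80 and place 79 of 16978 protein-coding genes tested when these were ordered by mean RPKM in the 2 populations. In CCL21-RANK+ cells it stood at place 661, at 47.5 ± 13.7 RPKM (SD, n = 3). Foxn1 came next in both RANK- populations, followed by Trp63, Pax9, Meis1, Six4, Eya1 and Isl1. In CCL21+RANK- cells the ranges of Six4 and Eya1 overlapped, as did those of Eya1 and Isl1, and the other neighbours in that order did not overlap. In CCL21-RANK- cells the overlap was between Six4 and Eya1. The order in CCL21-RANK+ cells was Foxn1, Pax1, Pax9, Trp63, Eya1, Six4, Meis1 and Isl1. There the ranges of Foxn1 and Pax1, of Pax9 and Trp63, of Eya1 and Six4, and of Six4 and Meis1 overlapped. The 8 genes summed to 453, 478 and 565 RPKM in CCL21+RANK- cells, to 146, 193 and 168 RPKM in CCL21-RANK+ cells and to 505 and 542 RPKM in CCL21-RANK- cells. Pax1 made up 48.3 to 52.3%, 23.3 to 31.9% and 55.7 to 55.8% of these sums, respectively.

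**Figure D1:**
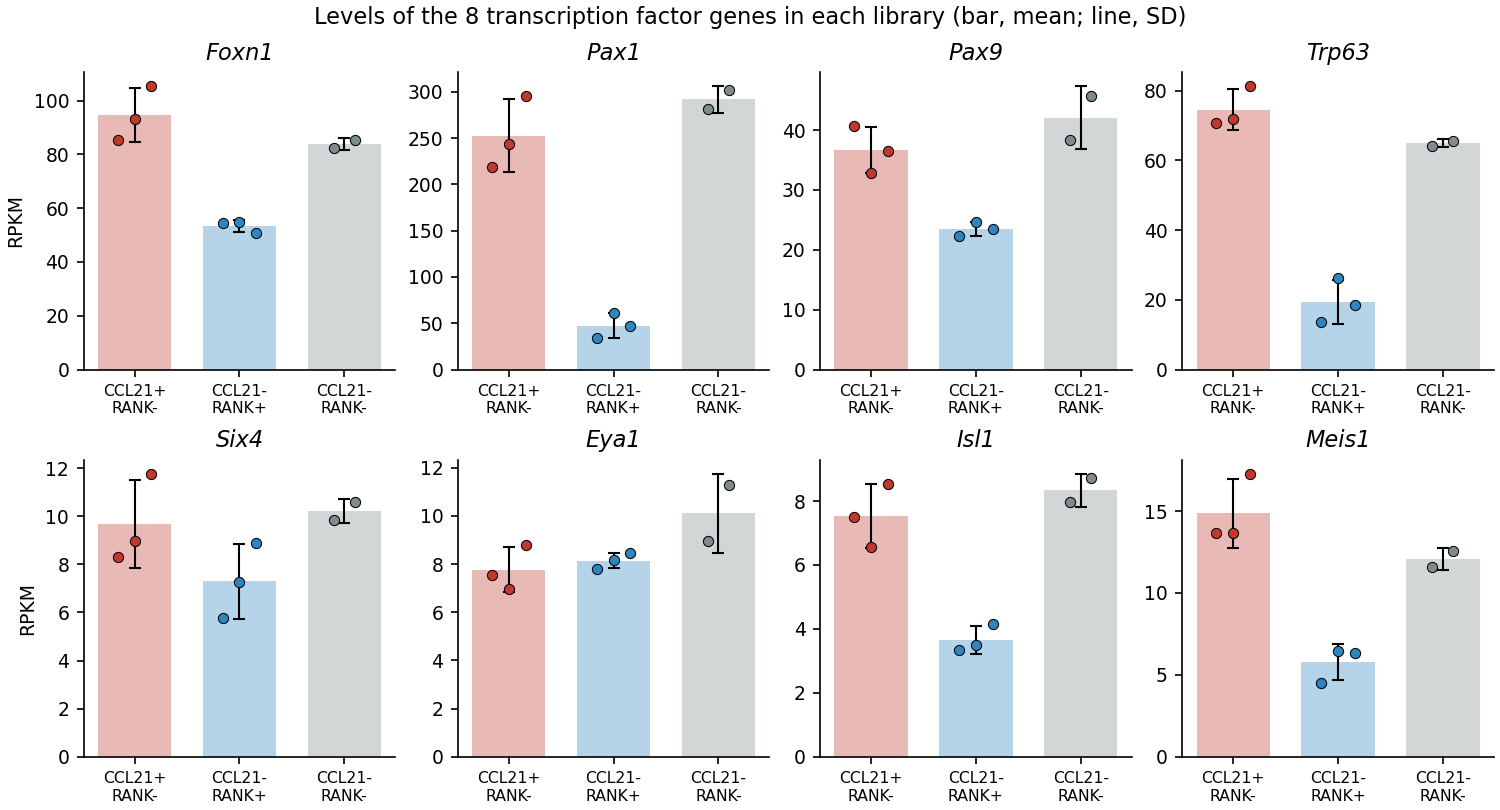
RPKM (linear axis from 0) of each of the 8 genes in CCL21+RANK-, CCL21-RANK+ and CCL21-RANK- cells (3, 3 and 2 libraries), with points for libraries, bars for means and lines for the SD. Foxn1, Pax1, Pax9, Trp63, Isl1 and Meis1 are lower in every CCL21-RANK+ library than in any other library, while Six4 and Eya1 overlap between CCL21+RANK- and CCL21-RANK+ cells.

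Between CCL21+RANK- and CCL21-RANK+ cells, 6 of the 8 genes were called higher in CCL21+RANK- cells, and 0 were called higher in CCL21-RANK+ cells. Genes were called at a Benjamini-Hochberg adjusted p under 0.05 in edgeR's quasi-likelihood test, where the fold exceeded 1.5 and the higher population averaged more than 1 RPKM. By the same rule 15.4% of the 21451 genes tested were called higher in CCL21+RANK- cells, and 30.8% were called in either direction. For 6 of the 8 genes the lowest CCL21+RANK- value exceeded the highest CCL21-RANK+ value, as for 22.8% of all genes tested, and with the trimmed mean of M-values (TMM) scaling of the fit in place of library totals this held for 7 of the 8 genes, Six4 being added, beside 27.6% of all genes tested. The median log2 fold change of the 8 genes was 1.05, beside -0.11 over all genes tested. In sorted bulk populations, fewer cells that express a gene and less RNA per cell cannot be told apart.

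Pax1 (ENSMUSG00000037034.16, chr2:147361925-147393295, + strand, GRCm38) differed most. Its level was 219, 244 and 296 RPKM over the CCL21+RANK- samples and 34.1, 61.5 and 47.0 RPKM in the CCL21-RANK+ samples. The lowest CCL21+RANK- library was far above the highest CCL21-RANK+ library. The log2 fold change was 2.51 ± 0.23 (SE), or 5.70-fold, with an adjusted p of 1.65e-05. A 183-base stretch of its exons lies opposite an exon of the antisense gene AI646519, which held 2242 counts in all against 396446 for Pax1, and the strand setting of the counting is not stated.

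Pax9 (ENSMUSG00000001497.18, chr12:56691767-56712822, + strand) differed less than its paralog. It was at 40.7, 32.9 and 36.4 RPKM in CCL21+RANK- cells and at 22.4, 24.6 and 23.5 RPKM in CCL21-RANK+ cells. The groups did not overlap, and the CCL21-RANK+ libraries lay close together. On the log2 scale the fold change was 0.76 ± 0.11 (SE), with an adjusted p of 0.000373. Its exons overlap those of Slc25a21, on the opposite strand, by 189 bases, and that gene held 743 counts against 77531 for Pax9.

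Trp63 (ENSMUSG00000022510.14, chr16:25683763-25892102, + strand) was at 70.7, 71.8 and 81.2 RPKM in CCL21+RANK- cells and at 13.7, 26.2 and 18.5 RPKM in CCL21-RANK+ cells. The CCL21-RANK+ libraries were all far lower, with replicate 1 the lowest, as for Pax1. This gave a log2 fold change of 2.04 ± 0.23 (SE), or 4.11-fold, with an adjusted p of 6.36e-05. Counts per gene do not separate the long and short protein forms of p63. In order of mean RPKM among protein-coding genes, Trp63 moved from place 369 in CCL21+RANK- cells to place 1883 in CCL21-RANK+ cells.

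Foxn1 (ENSMUSG00000002057.4, chr11:78357577-78386558, - strand) was at 85.4, 93.2 and 105 RPKM in CCL21+RANK- cells and at 54.5, 54.9 and 50.7 RPKM in CCL21-RANK+ cells. It was lower across the CCL21-RANK+ samples without overlap, yet it was the most abundant of the 8 genes there by mean RPKM. The log2 fold change was 0.94 ± 0.11 (SE), or 1.92-fold, with an adjusted p of 5.70e-05.

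Meis1 (ENSMUSG00000020160.18, chr11:18879817-19018985, - strand) was at 13.6, 13.7 and 17.3 RPKM in CCL21+RANK- cells and at 4.51, 6.47 and 6.35 RPKM in CCL21-RANK+ cells. On the log2 scale the difference was 1.47 ± 0.16 (SE), with an adjusted p of 5.67e-05. Its counts were not whole numbers in any library, and 1029 bases of its exons are shared on the same strand with Gm37818, which held 1321 counts against 51929 for Meis1. Isl1 (ENSMUSG00000042258.13, chr13:116298281-116309689, - strand) was at 7.52, 6.56 and 8.53 RPKM in CCL21+RANK- cells and at 3.34, 3.49 and 4.15 RPKM in CCL21-RANK+ cells. Its log2 fold change was 1.15 ± 0.13 (SE), with an adjusted p of 5.28e-05. Neither Meis1 nor Isl1 overlapped between these populations.

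Six4 and Eya1 were not called. Six4 (ENSMUSG00000034460.9, chr12:73099609-73113456, - strand) was at 8.31, 8.95 and 11.8 RPKM in CCL21+RANK- cells and at 5.76, 7.24 and 8.88 RPKM in CCL21-RANK+ cells. The groups overlapped on this scale, since CCL21-RANK+ replicate 3 exceeded CCL21+RANK- replicate 1, but not with the TMM scaling of the fit. Its log2 fold change was 0.51 ± 0.17 (SE), a 1.43-fold difference, with an adjusted p of 0.0305. Six4 would have been called without CCL21+RANK- replicate 1 (log2 fold change 0.61) or without CCL21-RANK+ replicate 3 (0.65). Its adjusted p in edgeR rose above 0.05 when CCL21+RANK- replicate 2 (0.0617) or 3 (0.106) or CCL21-RANK+ replicate 1 (0.0588, log2 fold change 0.33) or 2 (0.0556) was left out, with upper-quartile scaling (0.0579) and with at least 10 counts in every library (0.0710). Eya1 (ENSMUSG00000025932.14, chr1:14168954-14310235, - strand) was at 7.56, 6.96 and 8.80 RPKM in CCL21+RANK- cells and at 7.81, 8.15 and 8.44 RPKM in CCL21-RANK+ cells. The CCL21-RANK+ libraries lay inside the range of the CCL21+RANK- libraries. The log2 fold change was 0.05 ± 0.10 (SE), with an adjusted p of 0.723 and a 95% interval from -0.18 to 0.27, inside a 1.5-fold change in either direction. Its sign turned under other scalings.

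The start regions of the genes called in this comparison are shown because these genes were lower together in CCL21-RANK+ cells. RefSeq start regions on GRCm38.p6 were at hand for 6 of the 8 genes, among them all of the called genes except Trp63. Each line gives the 250 bases before the start, 5′ to 3′ on the strand of the gene. Capitals mark GACGC or its reverse complement GCGTC, the core recognised by FOXN1, and TGACAG or its reverse complement CTGTCA, the core recognised by MEIS1.
Foxn1, chr11:78386609-78386858, strand -: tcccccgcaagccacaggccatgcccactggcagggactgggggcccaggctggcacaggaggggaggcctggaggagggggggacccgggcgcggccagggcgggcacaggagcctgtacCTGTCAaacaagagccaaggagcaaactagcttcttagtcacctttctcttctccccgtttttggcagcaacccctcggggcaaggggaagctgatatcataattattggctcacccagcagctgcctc
Pax1, chr2:147364744-147364993, strand +: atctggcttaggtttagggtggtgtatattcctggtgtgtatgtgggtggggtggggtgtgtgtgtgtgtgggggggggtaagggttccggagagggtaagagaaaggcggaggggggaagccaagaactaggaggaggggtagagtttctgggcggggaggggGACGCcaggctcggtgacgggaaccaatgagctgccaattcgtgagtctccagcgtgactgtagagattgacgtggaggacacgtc
Pax9, chr12:56695221-56695470, strand +: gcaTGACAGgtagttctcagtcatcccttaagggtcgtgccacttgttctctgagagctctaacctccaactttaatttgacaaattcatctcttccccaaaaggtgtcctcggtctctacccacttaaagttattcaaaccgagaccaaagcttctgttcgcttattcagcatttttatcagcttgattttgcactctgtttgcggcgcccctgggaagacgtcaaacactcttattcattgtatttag
Isl1, chr13:116309689-116309938, strand -: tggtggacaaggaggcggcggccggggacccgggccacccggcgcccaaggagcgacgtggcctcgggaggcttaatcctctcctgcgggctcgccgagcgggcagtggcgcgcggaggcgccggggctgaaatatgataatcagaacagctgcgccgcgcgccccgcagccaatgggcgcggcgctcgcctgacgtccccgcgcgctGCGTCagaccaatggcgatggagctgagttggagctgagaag
Meis1, chr11:19018970-19019219, strand -: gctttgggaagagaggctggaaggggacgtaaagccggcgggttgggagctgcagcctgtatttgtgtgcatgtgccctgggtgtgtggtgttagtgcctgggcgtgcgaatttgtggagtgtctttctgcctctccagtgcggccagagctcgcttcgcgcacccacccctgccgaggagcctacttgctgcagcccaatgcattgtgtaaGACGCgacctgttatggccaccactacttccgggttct
The windows of Pax1, Isl1 and Meis1 each hold 1 match to GACGC on either strand, and those of Foxn1 and Pax9 each hold 1 match to TGACAG. No matches overlapped each other, and the windows of Six4 held neither. Of all 32851 RefSeq windows of this length, 22.6% hold GACGC and 15.9% hold TGACAG on either strand, so these matches describe the sequences and show no binding. The windows of Pax1 and Pax9 lie inside the longer GENCODE genes, in no annotated exon, and the last 16 bases of that of Meis1 lie in an exon.

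Within CCL21-RANK+ cells, replicate 1 had the lowest level of 7 of the 8 genes, Foxn1 being the exception. In the same library the summed markers of muscle (128 RPKM), mesenchyme (43.7 RPKM), endothelium (5.74 RPKM) and thymocytes (20.7 RPKM) were the highest of all 8 libraries. Their part in the result was not tested. Without that library, the log2 fold changes between CCL21+RANK- and CCL21-RANK+ cells were 2.29 for Pax1, 1.81 for Trp63, 1.28 for Meis1, 1.05 for Isl1, 0.91 for Foxn1 and 0.68 for Pax9, and the same 6 genes were called. Without CCL21+RANK- replicate 1, which held the most parathyroid marker RNA, 7 of the 8 genes were called, Six4 being added.

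**Figure D2:**
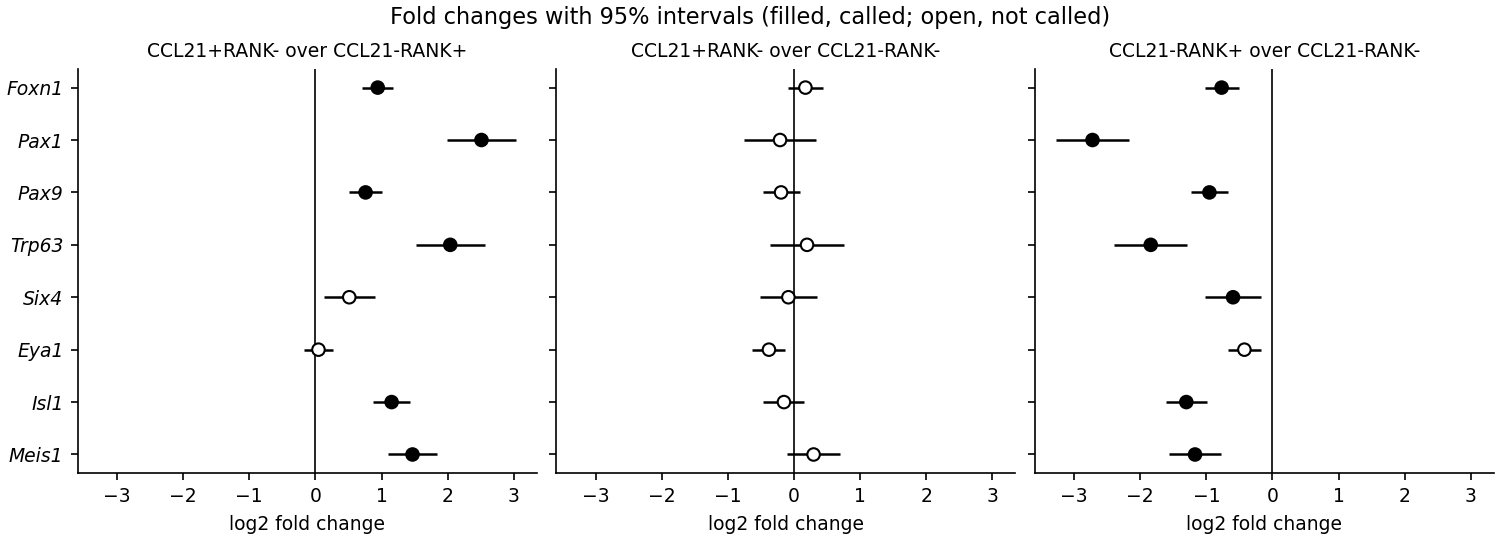
Log2 fold changes of the 8 genes in the 3 comparisons, with 95% intervals from edgeR's quasi-likelihood fit as lines, filled points for called genes and open points for genes not called. In the comparisons with CCL21-RANK+ cells, 6 and 7 genes are filled, and between the RANK- populations all 8 are open.

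CCL21+RANK- and CCL21-RANK- cells, both sorted as RANK-, were compared next. None of the 8 genes was called in edgeR (0 of 8, with 8.02% of all genes tested called, 4.35% higher in CCL21+RANK- and 3.66% higher in CCL21-RANK- cells), and 1, Eya1, had an unadjusted p under 0.05. DESeq2 called 0 as well. The median log2 fold change was -0.12, beside 0 over all genes tested. It was -0.05 without CCL21+RANK- replicate 1, and over the alternatives it lay between -0.20 and -0.05. In CCL21-RANK- cells, with 2 libraries, Pax1 was at 282 and 302 RPKM, Foxn1 at 82.2 and 85.4, Trp63 at 64.2 and 65.7, and Pax9 at 38.4 and 45.8. Meis1 was at 11.6 and 12.6 RPKM, Six4 at 9.85 and 10.6, Eya1 at 8.96 and 11.3, and Isl1 at 7.98 and 8.71. Both Meis1 and Trp63 were higher in every CCL21+RANK- library, and Eya1 was higher in both CCL21-RANK- libraries. Those are 3 of 8 genes without overlap, beside 38.8% of all genes tested. With the TMM scaling, Pax1 and Isl1 were also higher in both CCL21-RANK- libraries, which made 5 of 8 beside 44.4%.

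The intervals show how large a difference these libraries could have missed. For Foxn1 the log2 fold change between CCL21+RANK- and CCL21-RANK- cells was 0.17, with a 95% interval from -0.09 to 0.44. The intervals of Foxn1, Pax9, Six4 and Isl1 lay inside a 1.5-fold change in either direction. Those of Pax1 (-0.76 to 0.34), Trp63 (-0.36 to 0.76), Meis1 (-0.11 to 0.70) and Eya1 (-0.63 to -0.13) did not, so a difference of that size is not excluded for them. Eya1 came nearest to a call, with a log2 fold change of -0.38 ± 0.11 (SE) and an adjusted p of 0.0580 in edgeR. Over the alternative settings its adjusted p ran from 0.0249 with DESeq2 to 0.411. In edgeR it was 0.0250 without CCL21-RANK+ replicate 1 and 0.0446 with only the libraries compared, where the fold stayed under 1.5.

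Between CCL21-RANK+ and CCL21-RANK- cells, 7 of the 8 genes were called, all lower in CCL21-RANK+ cells. Of all genes tested, 15.1% were called in that direction, 14.4% in the other and 29.5% in either. The balance turned with the scaling, as 3244 genes were called lower and 3088 higher in CCL21-RANK+ cells, but 2637 and 3415 with DESeq2 size factors and 2737 and 3370 with upper-quartile scaling. This comparison shares the CCL21-RANK+ libraries with the first, so the results are not independent. The log2 fold changes were -2.72 ± 0.25 (SE) for Pax1, -1.84 ± 0.25 for Trp63, -1.30 ± 0.14 for Isl1 and -1.17 ± 0.18 for Meis1. They were -0.95 ± 0.12 (SE) for Pax9, -0.77 ± 0.12 for Foxn1 and -0.60 ± 0.19 for Six4. Pax1 was thus 6.60-fold lower, with an adjusted p of 1.82e-05. Every one of the 8 genes was lower in all 3 CCL21-RANK+ libraries than in both CCL21-RANK- libraries, beside 27.0% of all genes tested (32.7% with the TMM scaling, where the 8 did not overlap either). The call of Six4 (1.51-fold, adjusted p = 0.0266) lay at the threshold. It was lost without CCL21+RANK- replicate 2, CCL21-RANK+ replicate 1, CCL21-RANK- replicate 1 or CCL21-RANK- replicate 2 (log2 fold changes -0.57, -0.41, -0.58 and -0.62). Eya1 was 1.34-fold lower (log2 fold change -0.42 ± 0.11 (SE), adjusted p = 0.0108), short of the fold required. DESeq2 called 6 of the 8 genes between these populations. In edgeR with at least 10 counts in every library 5 were called, as Six4 and Foxn1 (log2 fold change -0.57) lost their calls.

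The 8 genes did not keep the same proportions to each other. The ratio of Pax1 to Pax9 RPKM was 5.38, 7.43 and 8.11 in CCL21+RANK- cells, 1.52, 2.5 and 2.01 in CCL21-RANK+ cells, and 7.34 and 6.59 in CCL21-RANK- cells. The ratio of Trp63 to Foxn1 RPKM was 0.827, 0.771 and 0.772 in CCL21+RANK- cells, 0.252, 0.477 and 0.364 in CCL21-RANK+ cells, and 0.781 and 0.769 in CCL21-RANK- cells. Both ratios were lower in every CCL21-RANK+ library than in any other library. The ratio of Six4 to Eya1 RPKM was 1.10, 1.29 and 1.34 in CCL21+RANK- cells, 0.738, 0.889 and 1.05 in CCL21-RANK+ cells, and 1.10 and 0.938 in CCL21-RANK- cells. The CCL21-RANK- values lay within or beside the ranges of the other populations. For each of the 3 ratios the two-sided exact permutation test between CCL21+RANK- and CCL21-RANK+ cells gave p = 0.1, the smallest that 3 against 3 libraries allow.

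**Figure D3:**
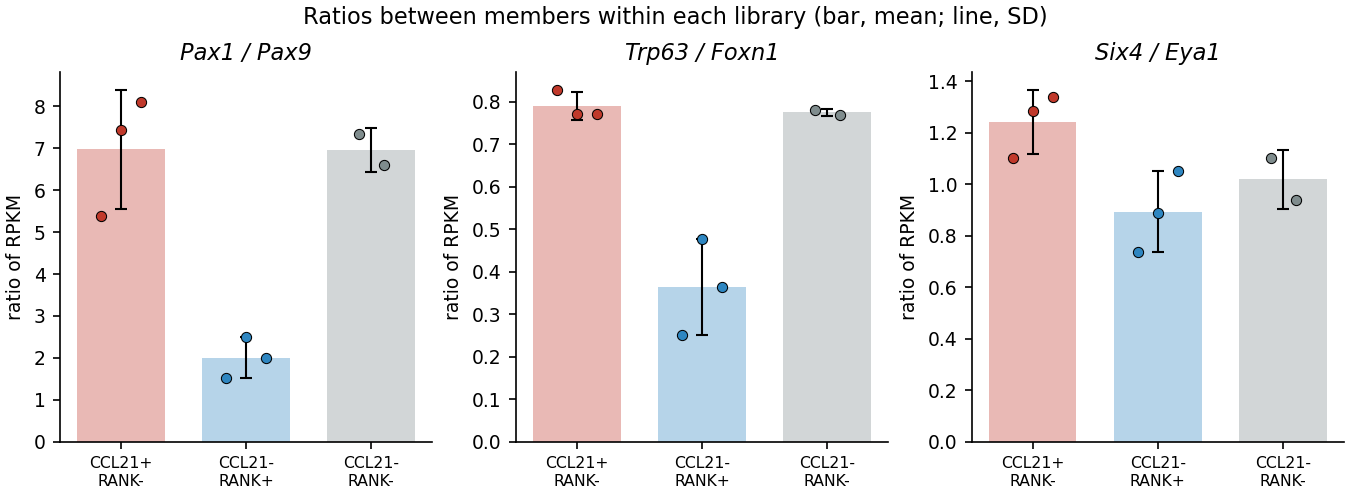
Ratios of RPKM between members in each library (linear axes from 0), with points for libraries, bars for means and lines for the SD. Pax1 to Pax9 averages 6.97, 2.01 and 6.97 over the CCL21+RANK-, CCL21-RANK+ and CCL21-RANK- samples, and Trp63 to Foxn1 averages 0.790, 0.364 and 0.775.

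The paralogs of the 8 genes were examined next, since related proteins can share binding sites. Of 22 paralogs 20 passed the filter on low counts. Between CCL21+RANK- and CCL21-RANK+ cells, 7 were called higher in CCL21+RANK- cells, 2 were called higher in CCL21-RANK+ cells and 11 were not called. In this comparison 15.4% of all genes tested were called in each direction, also the share to set beside the lists below. The median log2 fold change was -0.37, beside -0.11 over all genes tested, and it turned to 0.54 over the 12 paralogs with at least 10 counts in every library. Eya2, the most abundant paralog by mean RPKM, was at 105 ± 8.51 RPKM (SD, n = 3) among CCL21+RANK- cells, at 42.3 ± 4.24 (SD, n = 3) in CCL21-RANK+ cells and at 77.9 ± 9.54 (SD, n = 2) in CCL21-RANK- cells, a log2 fold change of 1.43 ± 0.09 (SE) between the first and the second. Six2, a homeodomain gene known from kidney progenitors, was 1.82 ± 0.12 (SE) higher on the log2 scale in CCL21+RANK- cells, and Six5 was 1.89 ± 0.24 (SE) higher. Foxn3, a forkhead repressor, was 1.79 ± 0.10 (SE) higher. Pax5, best known as a B-cell regulator, went the other way, at 1.18 ± 0.279 RPKM (SD, n = 3) among CCL21-RANK+ cells against 0.00604 in CCL21+RANK- cells and 0 in CCL21-RANK- cells. The other paralogs called were Eya4, Meis2 and Isl2, higher in CCL21+RANK- cells, and Foxn2, higher in CCL21-RANK+ cells, named after their values were seen. Against CCL21-RANK- cells, 3 paralogs were called higher and 5 lower in CCL21-RANK+ cells, and 1 was called higher when either CCL21-RANK- library was left out. Between the RANK- populations 0 of the 20 paralogs were called by edgeR in the main fit, 7 had an unadjusted p under 0.05, and DESeq2 called 1. With the replicate number as a block, edgeR called 2 higher in CCL21-RANK- cells. With at least 10 counts in every library, it called 1 higher in CCL21+RANK- cells. In the main fit Eya2 and Foxn3 had adjusted p of 0.0273 and 0.0281 between these populations. Their log2 fold changes of 0.43 and 0.47 fell short of the fold required.

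Within families the shares shifted. Pax1 and Pax9 together made up nearly all Pax RPKM, with Pax1 at a mean of 87.1%, 63.3% and 87.4% of it in CCL21+RANK-, CCL21-RANK+ and CCL21-RANK- cells. Eya1 held 6.22%, 13.3% and 10.1% of Eya RPKM, most of the rest being Eya2. Meis1 held 49.7%, 32.7% and 51.1% of Meis RPKM, with Meis2 at 42.6%, 51.2% and 42.6%. Foxn1 held 81.4%, 81.5% and 83.0% of Foxn RPKM, the steadiest of these shares. Trp63 held 78.2%, 37.8% and 69.0% of the RPKM of the p53 family, and Isl1 held 78.3%, 80.7% and 69.8% of that of Isl1 and Isl2. Shares add to the whole within a family, so the share of a gene also depends on the levels of the others.

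**Figure D4:**
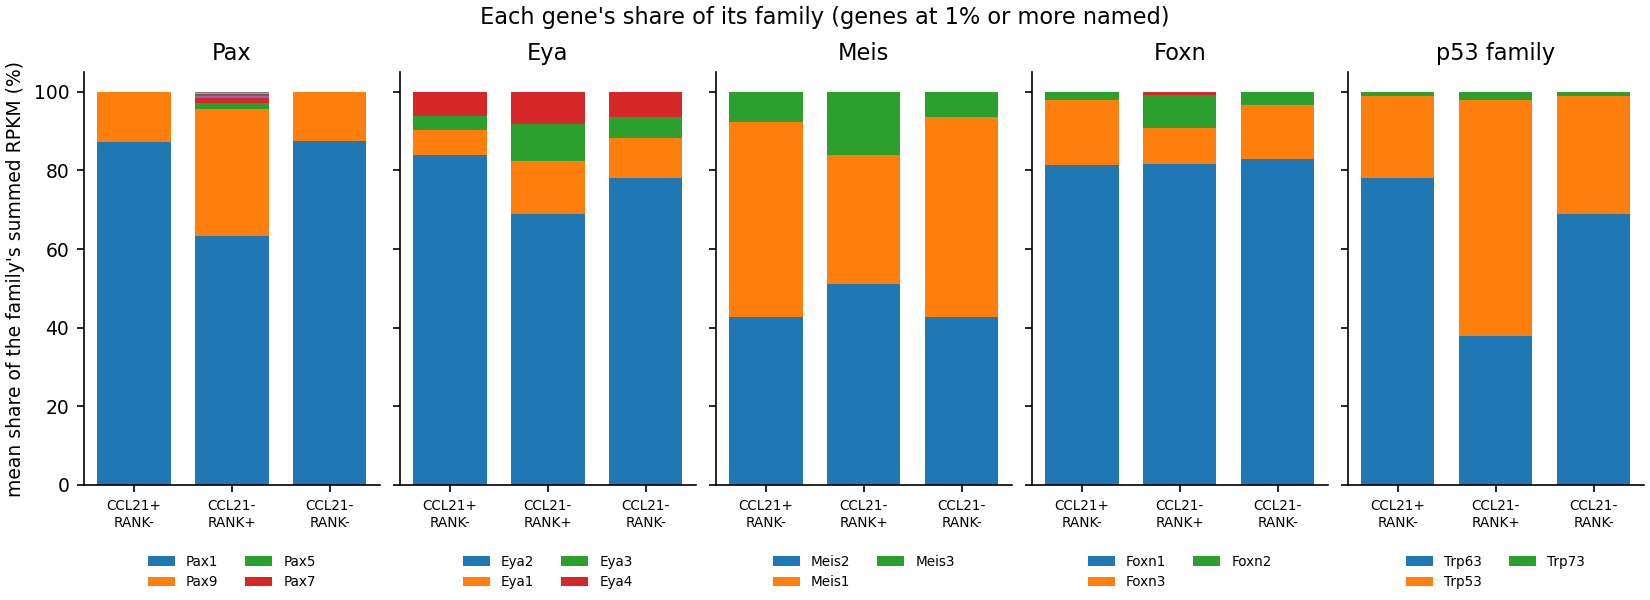
Mean share (percent) of each gene in the summed RPKM of its family, for 5 families in the 3 populations, with genes at 1% or more named. In CCL21-RANK+ cells Trp53 holds 60.3% of the p53 family, while Foxn1 holds 81.4 to 83.0% in the 3 populations.

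Binding partners of the 8 proteins were listed as well, such as the PBX partners of MEIS1 and the LDB1, SSBP and LMO proteins that join or compete with ISL1. All 13 were tested. Between CCL21+RANK- and CCL21-RANK+ cells, 5 were called higher in CCL21+RANK- cells (Ssbp2, Ssbp3, Lmo4, Pbx2 and Pknox2), 1 was called higher in CCL21-RANK+ cells (Dach1) and 7 were not called, with a median log2 fold change of 0.52 beside -0.11 over all genes tested. Ssbp3, the most abundant by mean RPKM and a stabiliser of LDB1 complexes, was at 17.9 ± 2.14 RPKM (SD, n = 3) among CCL21+RANK- cells and at 7.96 ± 0.550 (SD, n = 3) in CCL21-RANK+ cells. Pbx2, a TALE partner of MEIS1, was at 16.8 ± 1.89 RPKM (SD, n = 3) and at 7.81 ± 0.120 (SD, n = 3), a log2 fold change of 1.22 ± 0.10 (SE). Lmo4, which competes for LDB1, differed by 1.24 ± 0.13 (SE) on the log2 scale and Ssbp2 by 1.01 ± 0.18 (SE). Dach1, a nuclear cofactor that acts with Eya proteins, was at 0.454 ± 0.151 RPKM (SD, n = 3) among CCL21+RANK- cells and at 1.10 ± 0.264 (SD, n = 3) in CCL21-RANK+ cells. Against CCL21-RANK- cells, 2 of the 13 partners were called in CCL21+RANK- cells, 1 in each direction, and 4 were called lower in CCL21-RANK+ cells. Neither of the former 2 was called without CCL21+RANK- replicate 2 or without either CCL21-RANK- library, and without CCL21+RANK- replicate 1 Dach1 was not called. The call of Dach1 between CCL21+RANK- and CCL21-RANK+ cells was lost without CCL21-RANK+ replicate 3, where its mean was not above 1 RPKM.

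Other genes of the pharyngeal pouch went in both directions. Of 17 genes listed 16 were tested. Between CCL21+RANK- and CCL21-RANK+ cells, 4 were called higher in CCL21+RANK- cells, 5 were called higher in CCL21-RANK+ cells and 7 were not called. The median log2 fold change was -2.78, or -2.32 with genes at 0 set to the bound that 3 counts per library give, beside -0.11 over all genes tested. Without CCL21-RANK+ replicate 1, 15 genes were tested, 4 were called in each direction and the median was -2.18. Over the 6 genes with at least 10 counts in every library, 3 were called higher in CCL21+RANK- cells and 1 in CCL21-RANK+ cells, and the median turned to 1.59. Higher in CCL21-RANK+ cells were Tbx3, Foxa1, Foxa2, Nkx2-6 and Sox2. Tbx3, a T-box gene, was at 5.81 ± 1.62 RPKM (SD, n = 3) there, against 0.0234 RPKM in CCL21+RANK- and 0.0242 RPKM in CCL21-RANK- cells. Foxa2, a pioneer factor of endoderm, was at 1.39 ± 0.693 RPKM (SD, n = 3) and Sox2 at 1.07 ± 0.504 RPKM (SD, n = 3). Nkx2-6, a pouch homeobox gene, was at 10.3, 5.65 and 6.85 RPKM across the CCL21-RANK+ samples and at 0 in the other 5, at least 138-fold lower in CCL21+RANK- cells when 3 counts per library are taken as the floor. Higher in CCL21+RANK- cells were Tbx1, Gata3, Gcm2 and Hoxa3, named here after their values were seen. Gata3, a zinc-finger gene and the most abundant gene of the list by mean RPKM, was at 29.2, 9.90 and 10.3 RPKM in CCL21+RANK- cells, at 2.12 ± 0.466 (SD, n = 3) in CCL21-RANK+ cells and at 0.512 ± 0.114 (SD, n = 2) in CCL21-RANK- cells. Hoxa3, which acts upstream of the thymus and parathyroid programs, was at 2.82 ± 0.144 RPKM (SD, n = 3) among CCL21+RANK- cells, at 0.271 ± 0.0817 (SD, n = 3) in CCL21-RANK+ cells and at 2.73 ± 0.00257 (SD, n = 2) in CCL21-RANK- cells. Gcm2, the parathyroid master regulator, is also on the parathyroid list and was at 12.1, 4.05 and 5.05 RPKM over the 3 CCL21+RANK- samples and at or below 0.1215 RPKM in all others. Without CCL21+RANK- replicate 1, 3 were called higher in CCL21+RANK- and 5 in CCL21-RANK+ cells. Against CCL21-RANK- cells, 3 pouch genes were called higher and 1 lower in CCL21+RANK- cells, and 6 higher and 2 lower in CCL21-RANK+ cells. The former became 4 and 2 without CCL21-RANK+ replicate 1, 2 and 1 with CCL21+RANK- replicate 1 or CCL21-RANK- replicate 1 left out, and 2 and 0 without CCL21-RANK- replicate 2. The latter became 4 and 2 without CCL21-RANK+ replicate 1, 4 and 1 with CCL21-RANK- replicate 1 left out, and 5 and 1 without CCL21-RANK+ replicate 3, as with CCL21-RANK- replicate 2 left out.

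All 9 known targets of FOXN1 on the list were called between CCL21+RANK- and CCL21-RANK+ cells, 8 higher in CCL21+RANK- cells and 1, Cd40, higher in CCL21-RANK+ cells. Their median log2 fold change was 2.81, beside -0.11 over all genes tested, and that of Foxn1 was 0.94. Prss16, the thymus-specific serine protease of cortical TECs, was at 982 ± 65.6 RPKM (SD, n = 3) among CCL21+RANK- cells, at 77.8 ± 20.7 (SD, n = 3) in CCL21-RANK+ cells and at 893 ± 38.6 (SD, n = 2) in CCL21-RANK- cells. Psmb11, the proteasome subunit of cortical TECs, was at 267 ± 65.1 RPKM (SD, n = 3), 20.7 ± 10.7 (SD, n = 3) and 296 ± 4.42 (SD, n = 2), respectively. Cxcl12, which draws thymocyte progenitors, had the largest log2 fold change of the list, 4.14 ± 0.32 (SE). Cd83, needed for CD4 T-cell selection, differed by 3.34 ± 0.16 (SE), and Ccl25, a chemokine for progenitors, by 2.81 ± 0.26 (SE). Cd40, a receptor of the TNF family on TECs, was at 9.57 ± 1.13, 32.6 ± 9.73 and 4.45 ± 0.856 RPKM (SD, n = 3, 3 and 2). Against CCL21-RANK- cells, 8 of the 9 targets were called lower and Cd40 higher in CCL21-RANK+ cells, and between the RANK- populations 2 were called, Cd40 higher in CCL21+RANK- cells and Dll4, the Notch ligand of the thymus, higher in CCL21-RANK- cells. These last calls were lost when either CCL21-RANK- library was left out (adjusted p from 0.0577 to 0.135 in edgeR), with log2 fold changes of 1.00 and 1.25 for Cd40 against 1.12 with all libraries, and of -0.63 and -0.67 for Dll4 against -0.64. That of Dll4 was also lost without CCL21+RANK- replicate 2 (adjusted p = 0.0662). It was lost without CCL21+RANK- replicate 1, where its log2 fold change of -0.51 was under the fold required. The log2 fold change of -0.58 with at least 10 counts in every library was also under that fold. Between the RANK- populations 2 targets were called higher in CCL21+RANK- cells without CCL21-RANK+ replicate 1. The same count held with the replicate number as a block and with only the libraries compared.

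Targets of p63 in stratified epithelia were mixed. All 15 were tested, and between CCL21+RANK- and CCL21-RANK+ cells 10 were called higher in CCL21+RANK- cells, 2 were called higher in CCL21-RANK+ cells (Itga6 and Krt15) and 3 were not called (Itgb4, Col17a1 and Krt14). The median log2 fold change was 1.18, beside -0.11 over all genes tested. Lamb3, a chain of the basement membrane protein laminin, differed by 3.44 ± 0.22 (SE) on the log2 scale. Dsc3, a desmosomal cadherin, differed by 3.00 ± 0.16 (SE), Dst, a cytoskeletal linker, by 2.69 ± 0.20 (SE), and Cdh3, or P-cadherin, by 2.59 ± 0.15 (SE). Krt5, the basal keratin, was at 953 ± 89.1 RPKM (SD, n = 3) among CCL21+RANK- cells, at 434 ± 109.5 (SD, n = 3) in CCL21-RANK+ cells and at 140 ± 25.4 (SD, n = 2) in CCL21-RANK- cells. Krt5 was thus lowest in CCL21-RANK- cells, where Trp63 was at 64.2 and 65.7 RPKM. Its keratin partner Krt14 was at 52.7 ± 9.94, 65.9 ± 17.7 and 7.89 ± 0.200 RPKM (SD, n = 3, 3 and 2). Krt5 and Krt14 were both called higher in the CCL21+RANK- population than in the CCL21-RANK- cells (log2 fold changes 2.76 and 2.75) and higher in the CCL21-RANK+ population than in the CCL21-RANK- cells (1.51 and 2.94). Of the 15 targets, 6 were called higher and 3 lower in CCL21+RANK- than in the CCL21-RANK- cells, and 4 were called higher and 8 lower in CCL21-RANK+ than in the CCL21-RANK- cells. The 6 and 3 became 3 and 3 without CCL21-RANK- replicate 1, and 5 and 1 when replicate 2 of that population was left out.

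**Figure D5:**
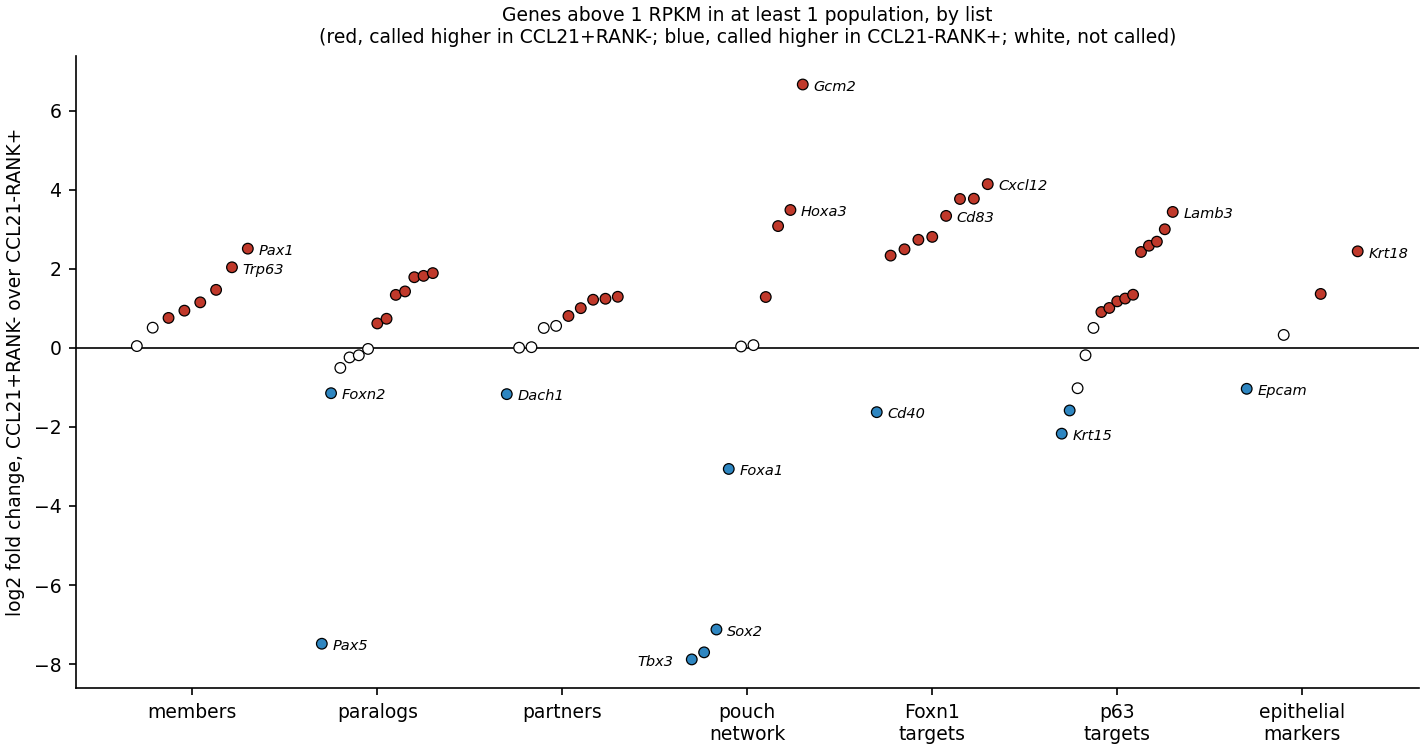
Log2 fold change between CCL21+RANK- and CCL21-RANK+ cells for each tested gene above a mean of 1 RPKM in at least 1 population, by list, with red and blue for genes called in either direction and white for genes not called. Genes at 0 in every library of a compared population are left out, the FOXN1 targets lie above 2 except for Cd40, and pouch genes lie on both sides of 0.

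Krt18 and Krt8, the simple keratins, were called higher in the CCL21+RANK- population than in the CCL21-RANK+ cells (log2 fold changes 2.44 ± 0.15 and 1.37 ± 0.12 (SE)), Epcam was called lower (-1.03 ± 0.19 (SE)) and Cdh1 was not called. Of 8 mesenchyme markers 3 (Col1a1, Dcn and Pdgfrb) were called higher in the CCL21-RANK+ population than in CCL21+RANK- cells. The sum of all 8 was 43.7, 21.4 and 27.5 RPKM in CCL21-RANK+ cells against 2.05 to 3.27 RPKM in CCL21+RANK- cells, Col1a1 being the most abundant. Twist1 and Pdgfra went the other way, with log2 fold changes of 3.89 and 1.67 (adjusted p of 0.00477 and 0.0283 in edgeR). They were not called, as their means in CCL21+RANK- cells were 0.953 and 0.196 RPKM. Without CCL21+RANK- replicate 2 or 3, 1 mesenchyme marker was also called higher in CCL21+RANK- cells. Of 5 endothelial markers 2 were called higher in CCL21-RANK+ cells, the sum being 2.24 to 5.74 RPKM against at most 0.511, with Tek the most abundant. Without CCL21-RANK+ replicate 1, 0 of the 5 were called by edgeR. Of 8 thymocyte markers 2 were called higher in CCL21-RANK+ cells, and 3 without CCL21+RANK- replicate 1. The sum of the 8 was 8.91 to 20.7 RPKM against 4.67 to 10.8, with Rag1 the most abundant. Ptprc, which encodes CD45, was at or below 0.576 RPKM in every library. Of 6 muscle markers 5 were called higher in CCL21-RANK+ cells, the sum being 36.6 to 128 RPKM against 2.44 to 12.6, with Myog the most abundant at 65.5, 22.8 and 27.0 RPKM in CCL21-RANK+ cells. The 5 became 3 when CCL21-RANK+ replicate 1 was left out, and likewise 3 with CCL21+RANK- replicate 2 left out. Of 6 neuroendocrine markers 2 were called higher in CCL21-RANK+ cells and Chga lower, with Insm1 at 176, 194 and 213 RPKM in CCL21-RANK+ cells. The 2 became 4 without CCL21-RANK+ replicate 2 or 3. Of 6 neural markers 2 were called higher and 1 lower, with sums of 6.33 to 7.75 RPKM in CCL21-RANK+ cells and 6.71 to 9.70 in CCL21+RANK- cells, and the 2 became 1 without CCL21-RANK+ replicate 1. All 4 parathyroid markers were called higher in CCL21+RANK- cells. Against CCL21-RANK- cells, 5 muscle, 3 mesenchyme, 4 thymocyte and 2 endothelial markers were called higher in CCL21-RANK+ cells, and 0 lower. Without CCL21-RANK+ replicate 1, the 5 muscle markers became 4 and the 2 endothelial markers became 0. No marker was at 0 in every library. The paper describes medullary TECs that express genes of other tissues or resemble cells found outside the thymus. Whether these marker transcripts came from such TECs or from other cells was not tested. Their part in the levels of the 8 genes was not tested either.

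For each of the 8 genes, the 3 protein-coding genes with the most similar pattern over the 8 libraries were found among 10786 genes by Pearson's r of log2 CPM. The choice depends on the coefficient. With Spearman's rho, which takes few values over 8 libraries and ties between genes, 2 of the 24 genes named next, Parg and Mrpl9, were among the nearest 3, although Cdr2l and Fbxw5 also had a rho of 1.00. The Pearson coefficients include the differences between the populations and describe these libraries. The nearest genes were Ppm1h, Plekhm3 and Sh2d4b for Foxn1 (r from 0.996 to 0.997), Cdr2l, Gab1 and Fto for Pax1 (0.999 to 1.00), and Pip4k2b, Pygb and Ankrd6 for Pax9 (0.994 to 0.996). They were Slc46a2, Egfr and Zfp707 for Trp63 (0.998), Parg, Kctd20 and Siah1a for Six4 (0.987 to 0.991), and Mrpl23, Mrpl9 and Nsa2 for Eya1 (0.978 to 0.985). For Isl1 they were Chchd7, Rnf122 and Nek7 (0.996), and for Meis1 Fbxw5, Arhgap8 and Inpp5a (0.995 to 0.997). None of the 8 genes was among the 3 nearest of another. Among the 8 genes, deviations from the population means went most closely together for Pax1 and Trp63 (r = 0.968 over 8 libraries) and least for Foxn1 and Pax9 (r = -0.23), given as a description of these libraries.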

How the data were processed

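Gene expression was measured by RNA-seq in 8 libraries of sorted E17 thymic epithelial cells. The authors deposited 1 table of expected counts per gene. The submitters' processing notes name bcl2fastq 2.20, Trimmomatic, STAR 2.5.1, RSEM 1.3.1 and mm10. The labels and the study's methods name different library kits and analysis software, and the strand setting of the counting is not given in the sources used here. Expected counts were rounded and tested with edgeR 4.0.16 (quasi-likelihood, TMM, filterByExpr, R 4.3.3) over all 8 libraries with 3 group means, with Benjamini-Hochberg adjustment over 21451 genes. SE was the absolute log2 fold change divided by the square root of F. RPKM used library totals and GENCODE exon lengths on GRCm38. Fold bounds took 3 counts per library as the floor. DESeq2 1.42.0 and other scalings, filters and left-out libraries were tried as alternatives. The fits were also run on simulated counts in which few genes changed, all by more than 1.5-fold. That run does not bear on calls near the threshold or on scaling where many genes differ. Likeness used protein-coding genes with a mean CPM of at least 5 and a prior count of 2.

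The 8 genes and all gene lists were chosen with earlier results of these data known. Of each list, the called genes with the largest absolute log2 fold change between CCL21+RANK- and CCL21-RANK+ TECs and the most abundant gene were named, at most 5 in all, and further genes were named after their values were seen. Some listed genes are not reported here, and list counts, medians and sums leave them out. Gcm2 is on the pouch and parathyroid lists, and Chga on the parathyroid and neuroendocrine lists. The RNAs Gm26917 and Gm42418 held 6.89 to 19.4% and 1.47 to 10.7% of the counts per library.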

Additional observations from a re-analysis of the deposited data

How the results depend on the processing

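Of 384 values of the 8 genes under 16 alternatives in 3 comparisons, 361 kept their direction and their side of the adjusted p threshold, 13 lost significance, 3 gained it and 7 turned sign. The log2 fold change of Eya1 between CCL21+RANK- and CCL21-RANK+ cells turned to -0.038 with DESeq2 size factors and in DESeq2, -0.030 with upper-quartile scaling, -0.00013 with no filter and -0.088 with at least 10 counts in every library. With 1 library left out it ran from -0.025 (without CCL21-RANK+ replicate 1) to 0.077, and that of Six4 between CCL21+RANK- and CCL21-RANK- cells from -0.18 to 0.013 (without CCL21+RANK- replicate 1). The cause was not tested. The call of Six4 between CCL21-RANK+ and CCL21-RANK- cells was also lost with DESeq2 size factors, upper-quartile scaling, DESeq2, no filter, at least 10 counts in every library or without Gm26917 and Gm42418, and that of Foxn1 with at least 10 counts in every library (log2 fold change -0.57). Members called ranged from 6 to 7, 0 to 0 and 5 to 7 in the 3 comparisons over the 16 alternatives. With the formal test of a 1.5-fold change in edgeR added, the lowest count in the first comparison was 5. Over all genes, 6617, 1720 and 6332 were called. With adjusted p alone the first and the last became 11516 and 10501, and the formal test of a 1.5-fold change in edgeR called 676 between the RANK- populations. There, leaving out 1 library gave 657 to 2066, with 772 without CCL21-RANK- replicate 1 and 657 without replicate 2, where the lone sample is assumed to vary like the other groups. DESeq2 size factors moved the median log2 fold change of all genes between CCL21-RANK+ and CCL21-RANK- cells from 0.06 to 0.20. With the replicate number as a block, 6616, 1913 and 6324 genes and 6, 0 and 7 of the 8 genes were called. Across genes, deviations from the means in CCL21+RANK- and CCL21-RANK+ samples of 1 number correlated at r = 0.126, 0.0485 and 0.0707, not all over 0.1, so the numbers were not taken as pairs. The labels number the samples in sequence within each replicate number, but no pairing is stated. Each CCL21+RANK- and CCL21-RANK+ sample correlated best with its own number in the other population (highest r with another number 0.041), a hint from the data. Against this, all 4 pairs of 1 number with CCL21-RANK- samples correlated negatively (-0.0528, -0.117, -0.0519 and -0.0411). Deviations of 2 samples from their mean mirror each other. The r of 0.117 between CCL21+RANK- replicate 2 and CCL21-RANK- replicate 1 therefore restates the -0.117. Low counts limit the pouch genes near 0 more than the 8 genes.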
